A study of Mus musculus with 8 samples.

Results

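Hepcidin and the genes that sense, carry, store and export iron were followed in the livers of Alb-cre Arid1a mice. The set holds 10 genes of the 35638 in the expression table, taken by name for their roles. They are the hepcidin genes Hamp and Hamp2, the bone morphogenetic protein gene Bmp6, the sensors Hfe and Tfr2, the uptake genes Tfrc and Trf, the exporter gene Slc40a1 and the ferritin subunit genes Fth1 and Ftl1. Frozen liver at postnatal day 90 was measured by RNA sequencing in 4 samples labelled Arid1a Fl/Fl with Alb-cre (KO) and in 4 labelled Arid1a Fl/Fl without it (WT). All 8 samples are described as mixed C57/B6 and 129 in strain, and the labels give neither each sample's share of the strains nor the sex. Alb-cre is a Cre transgene under the albumin promoter, active in hepatocytes. Loss of Arid1a was not measured by cell type. Arid1a encodes a chromatin remodelling protein of the SWI/SNF family. The labels do not say that replicates are separate animals, and the p-values then rest on a spread between samples that may be technical.

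Hepcidin is a peptide hormone that hepatocytes secrete when iron is plentiful or during inflammation. It binds ferroportin, the iron exporter encoded by Slc40a1, and has it degraded, so that less iron enters the blood from the gut and from macrophages that recycle red cells. Hepatocyte hepcidin transcription follows BMP signals from the sinusoidal endothelium, which act through SMAD proteins with hemojuvelin as co-receptor, and interleukin 6 signals, which act through STAT3. HFE and transferrin receptor 2 report the iron load of transferrin to this pathway. Mice carry a second hepcidin gene, Hamp2, beside Hamp. When a cell is short of iron, iron regulatory proteins bind stem-loops in mRNA, where they block translation of ferritin and ferroportin and stabilise the mRNA of transferrin receptor 1.

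Hamp and Hamp2 lie 17686 bases apart on the minus strand of chromosome 7 (GRCm38), Hamp at chr7:30942368-30944032 and Hamp2 at chr7:30922372-30924681. Bases 150 to 51 before the RefSeq start of each gene are shown because they hold a BMP-responsive hexamer and a STAT-type match in Hamp. Sequence more than 250 bases before the start was not searched. Both come from RefSeq (GRCm38.p6) and are read on the minus strand, Hamp at chr7:30944080-30944179 and Hamp2 at chr7:30924232-30924331. The Hamp2 stretch lies within the span given above for Hamp2, which is from GENCODE M21 and reaches further upstream than the RefSeq start. The comparison of the stretches holds for the RefSeq starts. The first run of capitals marks the BMP-responsive hexamer of Hamp and its aligned counterpart in Hamp2, and the second marks a STAT-type match.
Hamp: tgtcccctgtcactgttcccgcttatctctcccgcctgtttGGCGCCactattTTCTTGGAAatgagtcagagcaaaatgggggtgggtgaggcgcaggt
Hamp2: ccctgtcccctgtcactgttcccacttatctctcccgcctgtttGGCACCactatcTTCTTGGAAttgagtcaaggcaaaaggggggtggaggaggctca

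The hexamer begins 109 bases before the start in Hamp and its counterpart 106 bases before the start in Hamp2. Counted from the hexamer's first base, Hamp and Hamp2 differ there by G4A, so the letters GGCGCC are not in this window of Hamp2. The STAT-type match is the same in both genes and begins 97 bases before the start in Hamp and 94 in Hamp2. Over the 250 bases before the start, 227 of 253 aligned columns were identical (89.7%). On either strand, GGCGCC stood in 9.59% of 32851 RefSeq promoter windows of this kind, TTCNNNGAA in 7.02% and CANNTG, the E-box, in 66.2%. Of the 8 genes of the set that had a window, Hamp and Tfrc held GGCGCC, Hamp and Hamp2 held TTCNNNGAA, and Bmp6, Fth1, Hamp, Hamp2 and Tfrc held CANNTG. A match is a string of letters in this window and not a measured site.

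Stem-loops of the iron-responsive kind were searched in GENCODE M21 transcripts (GRCm38) because iron regulatory proteins bind such stem-loops, as said above. The search asked for the loop CAGTGN, in capitals here, closed by a stem of paired bases with a bulged C before it. It matched 4 of the 10 genes, against 294 of 21877 protein-coding genes (1.34%). The set was taken for its iron roles and includes the genes named above as targets of iron regulatory proteins. The higher share in the set is therefore no independent result, and a match is a string of letters and not a measured site. Fth1 (chr19:9982732-9982761, plus strand), Ftl1 (chr7:45459778-45459807, minus strand) and Slc40a1 (chr1:45925464-45925493, minus strand) each had a match in the 5′ UTR.
Fth1: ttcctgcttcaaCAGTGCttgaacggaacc
Ftl1: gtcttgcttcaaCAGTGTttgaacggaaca
Slc40a1: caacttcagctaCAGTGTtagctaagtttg

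Tfrc had 4 matches, all in the 3′ UTR on the plus strand of chromosome 16, at chr16:32631219-32631248, chr16:32631598-32631627, chr16:32631663-32631692 and chr16:32631710-32631739, shown in that order as a to d.
Tfrc a: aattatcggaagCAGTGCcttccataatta
Tfrc b: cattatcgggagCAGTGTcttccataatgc
Tfrc c: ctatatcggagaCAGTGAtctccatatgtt
Tfrc d: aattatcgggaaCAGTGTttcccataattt

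Values are FPKM, which scale fragments to gene length and library size, and the libraries are called KO 1 to KO 4 and WT 1 to WT 4 after the numbers in their labels. Estimated depth was 13700000 to 15200000 reads in KO libraries, against 12400000 to 13600000 reads in WT libraries. Arid1a itself was at 2.70, 2.86, 3.46 and 2.59 FPKM in KO and at 5.16, 8.38, 3.998 and 4.10 FPKM in WT libraries, with no overlap (limma adjusted p = 0.316), values that cover the whole gene and not the exons between loxP sites alone. Such a separation, with lower KO values, was seen in 3.18% of all genes tested. Summed over 12 macrophage markers, KO libraries held 20.6 to 156 FPKM and WT libraries 6.62 to 14.9 FPKM. Over 12 endothelial markers the sums were 17.7 to 35.5 FPKM in KO and 3.42 to 10.5 FPKM in WT libraries, and over 10 stellate cell markers 11.6 to 28.1 FPKM in KO and 2.72 to 7.24 FPKM in WT libraries. KO 2 had the lowest macrophage and endothelial sums of the KO libraries. The 10 hepatocyte markers, the defining genes of the labelled tissue, summed to 36643 to 54596 FPKM in KO and to 33488 to 46247 FPKM in WT libraries, and none had an unadjusted limma p under 0.05. Xist, which is expressed from the inactive X chromosome, was at 61.4 to 93.3 FPKM in KO and at 53.5 to 95.6 FPKM in WT libraries, and Y-linked Ddx3y was at 0 in all but KO 4, with 0.0527 FPKM, so the groups were alike in these sex-linked genes. In bulk tissue, fewer cells of a type and less RNA per cell cannot be told apart.

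None of the iron genes passed the threshold between KO and WT livers. The comparison used limma on log2(FPKM + 1), with p-values adjusted by Benjamini-Hochberg over the 11266 genes with a mean of at least 1 FPKM and a threshold of 0.05, and all fold changes are on that scale. Of all genes tested, 0.763% passed (86 genes, 46 higher and 40 lower in KO). Of the 10 iron genes, 9 were tested and 0 were called. At an unadjusted limma p under 0.05 stood 3 of the 9, Slc40a1 and Ftl1 with higher values in KO and Hamp2 with lower values. Of all genes 9.81% reached that level, 4.99% with higher and 4.82% with lower values in KO. Over the 8 tested iron genes other than Fth1, whose values are described with the ferritins, 4 log2 changes were above 0 and 4 below, with a median of 0.07, against -0.03 over all genes. Bmp6 lay below the minimum and was the 1 gene of the 10 whose KO and WT values did not overlap. Of the tested iron genes 0 had every KO library above every WT library, as 3.05% of all genes did, and 0 had every KO library below every WT library, as 3.18% did.

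**Figure D1:**
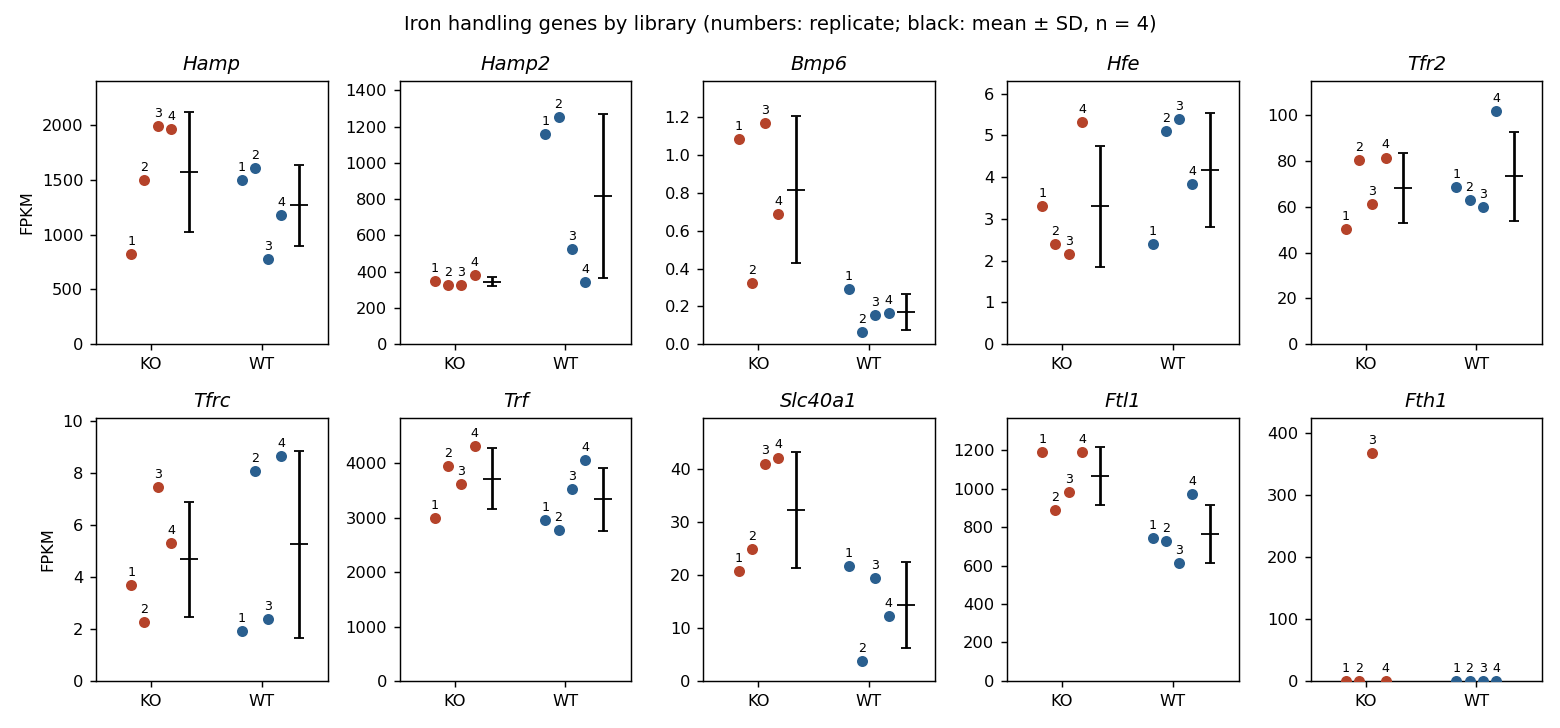
FPKM of the 10 iron handling genes in each library, with KO in red on the left, WT in blue on the right, replicate numbers above the points and the mean ± SD (n = 4) in black, except for Fth1. KO libraries lie close together for Hamp2, between 326 and 380.0 FPKM, and Bmp6 alone shows no overlap.

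Hamp had a higher and Hamp2 a lower mean in KO livers, and neither passed the threshold. Hamp, which encodes the active hormone, was at 819.9, 1502, 1995 and 1960.0 FPKM in KO 1 to KO 4 and at 1500.3, 1609, 781 and 1178 FPKM in WT 1 to WT 4. KO 3 and KO 4 lay above every WT library, KO 1 lay below all WT libraries but WT 3, and the groups overlapped. The means were 1569 ± 548 FPKM in KO and 1267 ± 372 FPKM in WT (SD, n = 4 each). The log2 change came to 0.28 ± 0.33 (SE), with a 95% interval of -0.47 to 1.02 and a limma adjusted p of 0.889, so Hamp did not differ by more than the spread between replicates.

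Hamp2 encodes a hepcidin paralog whose part in iron regulation is unsettled. It was at 347, 326, 329 and 380.0 FPKM in KO 1 to KO 4 and at 1157, 1252.5, 524 and 344 FPKM in WT 1 to WT 4. WT 1 and WT 2 were high, WT 3 was intermediate, and WT 4 fell within the KO range, which is the whole of the overlap. The means were 345 ± 24.9 FPKM in KO and 819 ± 453 FPKM in WT (SD, n = 4 each), a log2 change of -1.05 ± 0.38 (SE) with a 95% interval of -1.91 to -0.19. The unadjusted limma p was 0.0221 and the adjusted p 0.373. Without WT 4 the change was -1.40 with a limma adjusted p of 0.101.

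The balance between the paralogs shows the same libraries on a scale that does not depend on depth. Hamp2 made up 29.8, 17.8, 14.2 and 16.2% of the summed FPKM of Hamp and Hamp2 in KO 1 to KO 4 and 43.5, 43.8, 40.1 and 22.6% in WT 1 to WT 4. KO 1 exceeded WT 4, and the other KO libraries lay below every WT library. The sum of both genes was 1167, 1828, 2324 and 2340.0 FPKM in KO 1 to KO 4 and 2658, 2862, 1304 and 1522 FPKM in WT 1 to WT 4, which overlapped across most of their range. Across the 8 libraries Hamp2 had a Pearson r of 0.10 with Hamp on the log2(FPKM + 1) scale, given as a description. The annotated transcripts of Hamp (410 nt) and Hamp2 (420 nt, the one compared) matched in 388 of 420 aligned columns (92.4%), and the longest identical run was 87 bases. How reads that match both genes were assigned is not given in the sources used here, so the split between them is uncertain.

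A noncoding gene spans this locus on the other strand. Gm44662, a lincRNA at chr7:30916983-30946824 on the plus strand, reaches past both hepcidin genes, and 89 of its 412 exonic bases lie opposite the last exon of Hamp2, with 0 opposite exons of Hamp. It was at 32.6, 20.8, 12.6 and 14.9 FPKM in KO 1 to KO 4 and at 137, 152, 58.9 and 40.7 FPKM in WT 1 to WT 4. It was chosen for mention after its values were seen. The KO libraries all lay below the WT libraries, as for 3.18% of all genes tested. The order among WT libraries was that of Hamp2. The log2 change was -2.09 ± 0.45 (SE; limma adjusted p = 0.0892). The adjusted p was 0.0410 without WT 4, with a change of -2.44, and 0.0331 with array weights, with a change of -2.37, and over the 19 alternatives it ran from 0.0331 to 0.226. Gm44662 came to 9.40, 6.40, 3.84 and 3.93% of Hamp2 FPKM in KO and to 11.8, 12.2, 11.2 and 11.8% in WT libraries. Whether the counting used strand is not given in the sources used here, and without strand reads of Hamp2 and Gm44662 cannot be told apart where they overlap.

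**Figure D2:**
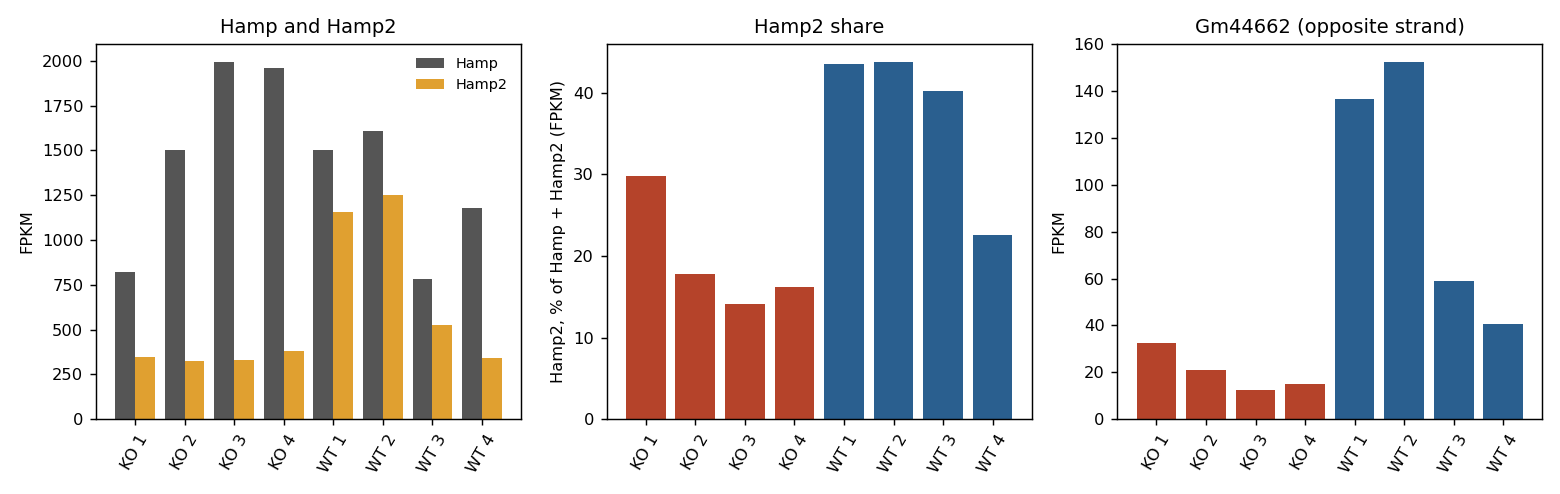
Left, FPKM of Hamp and Hamp2 in each library. Middle, Hamp2 as a percent of the sum of both, from 14.2 to 29.8% in KO and from 22.6 to 43.8% in WT. Right, FPKM of Gm44662, at most 32.6 in KO and at least 40.7 in WT.

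Bmp6, the BMP ligand that iron induces in liver endothelium and that drives hepcidin transcription, was low everywhere and was higher in every KO library than in any WT library. It was at 1.09, 0.323, 1.17 and 0.690 FPKM in KO 1 to KO 4 and at 0.293, 0.0622, 0.153 and 0.162 FPKM in WT 1 to WT 4. KO 2 was close to WT 1, and the other KO libraries stood well above all WT libraries. The means were 0.817 ± 0.390 FPKM in KO and 0.168 ± 0.0952 FPKM in WT (SD, n = 4 each), a ratio of 4.87. By an exact permutation test (two-sided) p was 0.0286, the lowest of which 70 splits are capable, and 5.38% of the 7773 genes with a mean of 0.1 to 1 FPKM also had every KO library above every WT library. Without a minimum level the log2 change of FPKM + 1 was 0.61, with a limma adjusted p of 0.266.

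At the estimated depth the Bmp6 values correspond to roughly 53.5, 17.7, 57.5 and 36.7 reads in KO 1 to KO 4, against 13.3, 3.02, 7.46 and 7.24 reads in WT 1 to WT 4. Bmp6 (chr13:38345107-38500302, plus strand) shares 224 exonic bases with Txndc5, on the opposite strand, which was at 31.5 to 40.2 FPKM in KO and at 33.4 to 48.0 FPKM in WT libraries, overlapping between the groups. Of the 12 endothelial markers 8 were tested, and all 8 had higher means in KO with an unadjusted limma p under 0.05, as did 4.99% of all genes, though none passed the threshold. Among the others, Lyve1 was listed at 0 in WT 1, WT 2 and WT 4. Relative to the summed endothelial markers, Bmp6 came to 3.06, 1.82, 3.38 and 2.59% in KO and to 8.58, 0.862, 1.83 and 1.54% in WT libraries. These shares overlapped, and the part of endothelial RNA in the Bmp6 values was not tested.

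The iron sensors overlapped between the groups. Hfe, an MHC class I-like protein that binds transferrin receptor 1, was at 3.30, 2.41, 2.16 and 5.33 FPKM in KO 1 to KO 4 and at 2.41, 5.10, 5.39 and 3.83 FPKM in WT 1 to WT 4. Its log2 change was -0.28 ± 0.28 (SE; limma adjusted p = 0.855). Tfr2, which is largely a hepatocyte gene and senses loaded transferrin, was at 50.3, 80.2, 61.0 and 81.4 FPKM in KO 1 to KO 4 and at 68.6, 63.0, 59.8 and 102 FPKM in WT 1 to WT 4. WT 4 was the highest library and KO 1 the lowest. The log2 change of Tfr2 was -0.10 ± 0.23 (SE), with a 95% interval of -0.62 to 0.42 and a limma adjusted p of 0.954, and it was 0.07 without WT 4 and 0.04 without KO 1.

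Tfrc encodes transferrin receptor 1, the receptor of cellular iron uptake. It was at 3.68, 2.26, 7.45 and 5.30 FPKM in KO 1 to KO 4 and at 1.93, 8.07, 2.36 and 8.63 FPKM in WT 1 to WT 4. Each group held low and high libraries, and the means were 4.67 ± 2.23 FPKM in KO and 5.25 ± 3.59 FPKM in WT (SD, n = 4 each). The log2 change was -0.02 ± 0.45 (SE), with a 95% interval of -1.04 to 0.99 and a limma adjusted p of 0.997. As a percent of Tfr2, Tfrc came to 7.33, 2.81, 12.2 and 6.50% in KO and to 2.82, 12.8, 3.95 and 8.48% in WT libraries, so transferrin receptor 2 mRNA was the more abundant of the pair in all 8 libraries.

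Trf, which encodes the plasma iron carrier transferrin, was the most abundant of the set in every library. It was at 3002, 3948, 3616 and 4321 FPKM in KO 1 to KO 4 and at 2965, 2779, 3537 and 4062 FPKM in WT 1 to WT 4. The groups overlapped, with a log2 change of 0.16 ± 0.20 (SE; limma adjusted p = 0.889). Gm20425, a gene annotated over the same strand that shares 2108 exonic bases with Trf, stood at 77.7 to 79.6% of Trf FPKM in KO and at 76.2 to 79.7% in WT libraries. How reads shared by both were assigned is not given in the sources used here.

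Slc40a1, the only known mammalian exporter of free iron from cells, had a higher mean in KO livers but did not pass the threshold. It was at 20.8, 25.0, 41.0 and 42.1 FPKM in KO 1 to KO 4 and at 21.6, 3.78, 19.4 and 12.3 FPKM in WT 1 to WT 4. WT 2 was the lowest library, KO 3 and KO 4 were the highest, and the groups overlapped only through KO 1 and WT 1. The means were 32.2 ± 10.9 FPKM in KO and 14.3 ± 8.05 FPKM in WT (SD, n = 4 each). The log2 change was 1.28 ± 0.47 (SE), with a 95% interval of 0.23 to 2.33, an unadjusted limma p of 0.0223 and an adjusted p of 0.375. Leaving out WT 2 gave the smallest change among single libraries left out, 0.80.

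Macrophages of the liver express Slc40a1 as hepatocytes do, and macrophage markers differed in the same direction. Of the 12 macrophage markers 10 were tested, and all 10 had higher means in KO with an unadjusted limma p under 0.05, as did 4.99% of all genes, though none passed the threshold. By library, 10 of the 12 did not overlap between the groups, with every KO library above every WT library, as for 3.05% of all genes tested and 5.38% of genes with a mean of 0.1 to 1 FPKM. Timd4 was listed at 0 in WT 1 and WT 2 and Marco in WT 1. Slc40a1 FPKM came to 23.2, 121, 26.3 and 37.0% of the summed macrophage markers in KO 1 to KO 4 and to 327, 45.0, 155 and 82.5% in WT 1 to WT 4. KO 2 had the lowest macrophage sum of the KO libraries, 20.6 FPKM, which was still above the highest WT sum of 14.9 FPKM. Its Slc40a1 value of 25.0 FPKM was likewise above every WT library. KO 1, with a macrophage sum of 89.5 FPKM, had Slc40a1 at 20.8 FPKM, below WT 1 at 21.6 FPKM. The part of macrophage RNA in the Slc40a1 values was not tested.

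**Figure D3:**
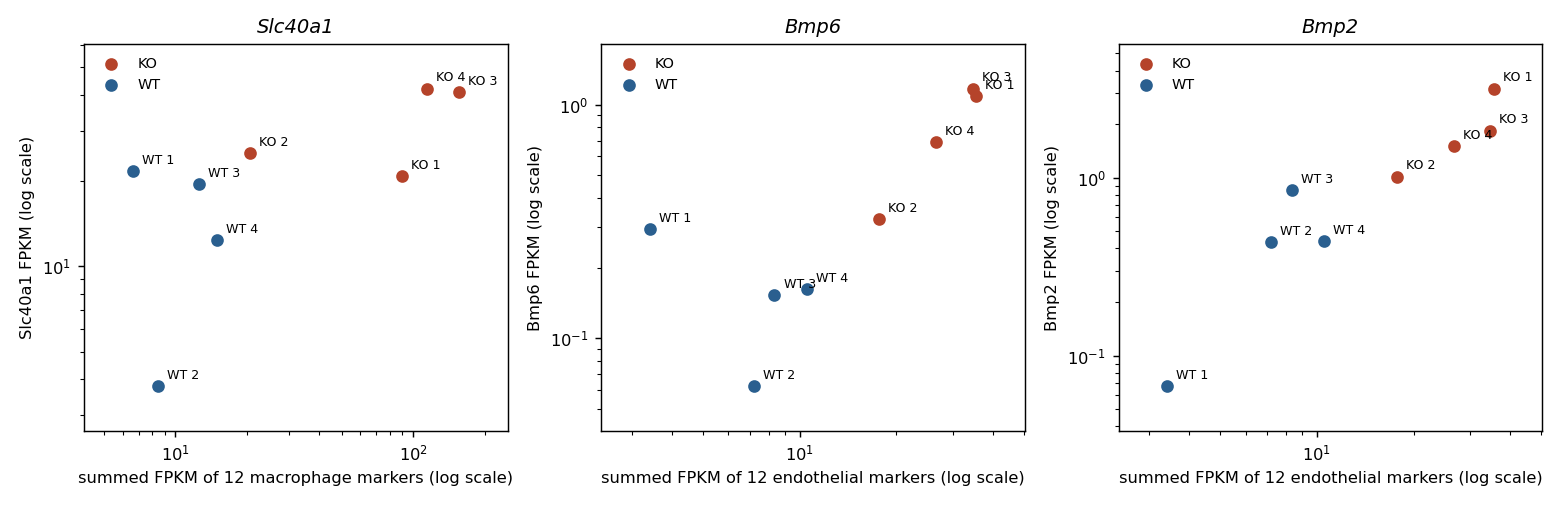
FPKM of Slc40a1 against the summed FPKM of 12 macrophage markers (left), and of Bmp6 (middle) and Bmp2 (right) against the summed FPKM of 12 endothelial markers, on log scales, with KO libraries in red and WT libraries in blue. The KO libraries lie to the right, from 20.6 FPKM of macrophage markers and from 17.7 FPKM of endothelial markers, and the WT libraries to the left, up to 14.9 and 10.5 FPKM.

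The ferritin subunits, which form the shell that stores iron, could be compared only for the light chain. Ftl1 was at 1190.0, 890.5, 985 and 1192 FPKM in KO 1 to KO 4 and at 746, 730.4, 615 and 975 FPKM in WT 1 to WT 4. The groups overlapped only through WT 4, which exceeded KO 2. The means were 1064 ± 151 FPKM in KO and 767 ± 151 FPKM in WT (SD, n = 4 each), with a log2 change of 0.48 ± 0.20 (SE), a 95% interval of 0.04 to 0.92, an unadjusted limma p of 0.0341 and an adjusted p of 0.432.

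Copies of Ftl1 and genes that overlap it stood at other levels, and their means differed between the groups in the direction of Ftl1. Ftl2-ps, a processed pseudogene, stood at 10.1 to 10.9% of Ftl1 FPKM in KO and at 10.1 to 10.2% in WT libraries, a nearly fixed share. Gm10116, taken as a copy of Ftl1 without a sequence comparison here, was at 224, 221, 255 and 239.9 FPKM in KO libraries. In WT libraries it was at 187, 137, 150.2 and 188 FPKM (log2 change 0.51, limma adjusted p = 0.299). Every KO library lay above every WT library, as for 3.05% of all genes tested. Gm22133, a miRNA gene, has all 109 of its exonic bases within those of Ftl1 on the same strand. It was at 1812 to 2298 FPKM in KO and at 1210 to 1939 FPKM in WT libraries, which overlapped (limma adjusted p = 0.519). Gm10252, an unconfirmed transcript on the opposite strand that shares 355 exonic bases with Ftl1, was at 255, 203, 238 and 309 FPKM in KO and at 184, 156, 115 and 209 FPKM in WT libraries. How reads shared with these genes were assigned is not given, so the level of Ftl1 is uncertain while the values of its copies differ in the same direction.

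Fth1, the heavy chain with the ferroxidase site, was listed at 0 in KO 1, KO 4 and all 4 WT libraries, at 0.00517 FPKM in KO 2 and at 368 FPKM in KO 3. Liver cells use this gene throughout, and such a 0 can be a failed estimate, so no mean, fold change or ratio to Ftl1 is given. Fth1 was among the 9 genes tested through KO 3 alone.

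Levels per gene length ranked in nearly the same order in all libraries. Averaged over the 8 libraries, Trf was at 3529 FPKM, Hamp at 1418, Ftl1 at 915, Hamp2 at 582, Tfr2 at 70.8, Slc40a1 at 23.3, Tfrc at 4.96, Hfe at 3.74 and Bmp6 at 0.492 FPKM. Trf ranked 1, Tfr2 5 and Bmp6 9 of these 9 genes in every library. Hamp ranked 2 or 3, Ftl1 from 2 to 4 and Hamp2 3 or 4, so Ftl1 changed places with each hepcidin gene. Slc40a1, Tfrc and Hfe also exchanged places between libraries. Among all genes Trf ranked 19 and Hamp 46 by mean FPKM.

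The wider regulators of hepcidin and of the BMP and SMAD pathway showed no gene past the threshold. Of 18 measured genes 16 were tested, 10 with a log2 change above 0 and 6 with one below 0, and the median log2 change was 0.16, against -0.03 over all genes. An unadjusted limma p under 0.05 was reached by 2 of the 16, Bmp2 and Hfe2, and by 9.81% of all genes. Bmp2, the other endothelial BMP ligand that acts on hepcidin, had the smallest p of this list. It was at 3.17, 1.01, 1.84 and 1.505 FPKM in KO 1 to KO 4 and at 0.0671, 0.434, 0.850 and 0.440 FPKM in WT 1 to WT 4. Every KO library lay above every WT library, as for 3.05% of all genes tested. The log2 change of Bmp2 was 0.97 ± 0.26 (SE; limma adjusted p = 0.167). Relative to the summed endothelial markers Bmp2 came to 8.92, 5.72, 5.32 and 5.65% in KO and to 1.96, 6.02, 10.2 and 4.18% in WT libraries, which overlapped, and the part of endothelial RNA was not tested.

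Hemojuvelin, the BMP co-receptor of hepatocytes encoded by Hfe2, and the genes named after it in this list were chosen after their values were seen. Hfe2 was at 19.8, 11.3, 13.3 and 20.01 FPKM in KO 1 to KO 4 and at 6.93, 8.65, 8.91 and 12.4 FPKM in WT 1 to WT 4, where WT 4 exceeded KO 2 (log2 change 0.73 ± 0.24 SE, limma adjusted p = 0.302). Tmprss6, the protease that cleaves hemojuvelin, was at 59.1 to 91.2 FPKM in KO and at 61.0 to 82.9 FPKM in WT libraries. The BMP target genes Id1 and Smad7 overlapped as well. Id1 was at 5.85, 11.3, 6.54 and 4.04 FPKM in KO 1 to KO 4 and at 11.5, 1.97, 2.19 and 3.46 FPKM in WT 1 to WT 4 (limma adjusted p = 0.754). Smad7, an inhibitory SMAD that the pathway induces, was at 12.9, 7.01, 4.99 and 4.47 FPKM in KO 1 to KO 4 and at 6.52, 1.79, 3.98 and 4.08 FPKM in WT 1 to WT 4 (limma adjusted p = 0.602). WT 2 was the lowest library for both.

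The interleukin 6 and acute phase genes, the inflammatory inputs to hepcidin and their co-regulated plasma proteins, held 16 tested genes of 17. Of these 9 had a log2 change above 0 and 7 one below 0, none passed the threshold, and the median log2 change was 0.11. Saa2, an acute phase apolipoprotein, had the smallest p. It alone of the 16 reached an unadjusted limma p under 0.05, as did 9.81% of all genes. It was at 29.2, 13.1, 52.8 and 78.3 FPKM in KO 1 to KO 4 and at 9.31, 7.88, 1.82 and 24.1 FPKM in WT 1 to WT 4. WT 4 exceeded KO 2, and the log2 change was 2.03 ± 0.68 (SE; limma adjusted p = 0.315).

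Of the other genes of iron uptake, transfer and regulation, 14 of 17 were tested, 5 with a log2 change above 0 and 9 with one below 0. None passed the threshold, and the median log2 change was -0.07. Slc25a37, mitoferrin 1, which imports iron into mitochondria, had the smallest p. It was at 1.05, 2.16, 2.84 and 0.889 FPKM in KO 1 to KO 4 and at 6.42, 1.596, 6.37 and 4.33 FPKM in WT 1 to WT 4. The groups overlapped only through WT 2, with a log2 change of -1.003 ± 0.37 (SE; limma adjusted p = 0.380). Steap2, named after its values were seen, lay below the minimum and was not tested. It was at 0.143 to 0.252 FPKM in KO and at 0.604 to 1.06 FPKM in WT libraries, without overlap. Of genes tested, 3.18% had every KO library below every WT library, and that share among lower genes was not computed.

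Genes of haem synthesis, transport and breakdown held 17 tested genes, 9 with a log2 change above 0 and 8 with one below 0, and a median log2 change of 0.01. None passed the threshold, and 4 reached an unadjusted limma p under 0.05, as did 9.81% of all genes. Hmox1, haem oxygenase 1, which releases iron from haem, had the smallest p. It was at 3.904, 2.03, 19.8 and 4.31 FPKM in KO 1 to KO 4 and at 0.748, 0.543, 0.681 and 0.390 FPKM in WT 1 to WT 4. All KO libraries lay above WT, as for 3.05% of all genes tested, and KO 3 by the widest margin. The log2 change was 2.01 ± 0.50 (SE; limma adjusted p = 0.136). Macrophages that recycle red cells express Hmox1, and the macrophage sums given above also did not overlap between the groups. Their part in the Hmox1 values was not tested.

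The remaining 3 of these haem genes were chosen after their values were seen. Hpx, the plasma haem carrier hemopexin, was at 1003, 1300.4, 1564 and 1917 FPKM in KO 1 to KO 4 and at 783, 638, 777 and 936 FPKM in WT 1 to WT 4, without overlap (log2 change 0.86 ± 0.23 SE, limma adjusted p = 0.165). Alad, the second enzyme of haem synthesis, was at 64.1, 66.4, 51.3 and 57.8 FPKM in KO 1 to KO 4 and at 114, 93.4, 71.6 and 119.6 FPKM in WT 1 to WT 4, also without overlap (log2 change -0.70 ± 0.20 SE, limma adjusted p = 0.2002). Of all genes tested, 3.05% had every KO library above every WT library, as Hpx did, and 3.18% every KO library below, as Alad did. Urod, a later enzyme of the same pathway, had a log2 change of -0.45 (limma adjusted p = 0.438). Hpx and Alad thus differed in opposite directions within the list. Iron-sulfur cluster assembly had 14 tested genes, 5 with a log2 change above 0 and 9 with one below 0, a median log2 change of -0.08 and 0 called. In that list 0 genes reached an unadjusted limma p under 0.05, against 9.81% of all genes. The smallest p was that of Ciao1 (log2 change -0.52, limma adjusted p = 0.513). Hscb of that list lay below the minimum and was named after its values were seen. It was at 0.705 to 1.63 FPKM in KO and at 0.243 to 0.605 FPKM in WT libraries. Of genes with a mean of 0.1 to 1 FPKM, 5.38% likewise had every KO library above every WT library.

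**Figure D4:**
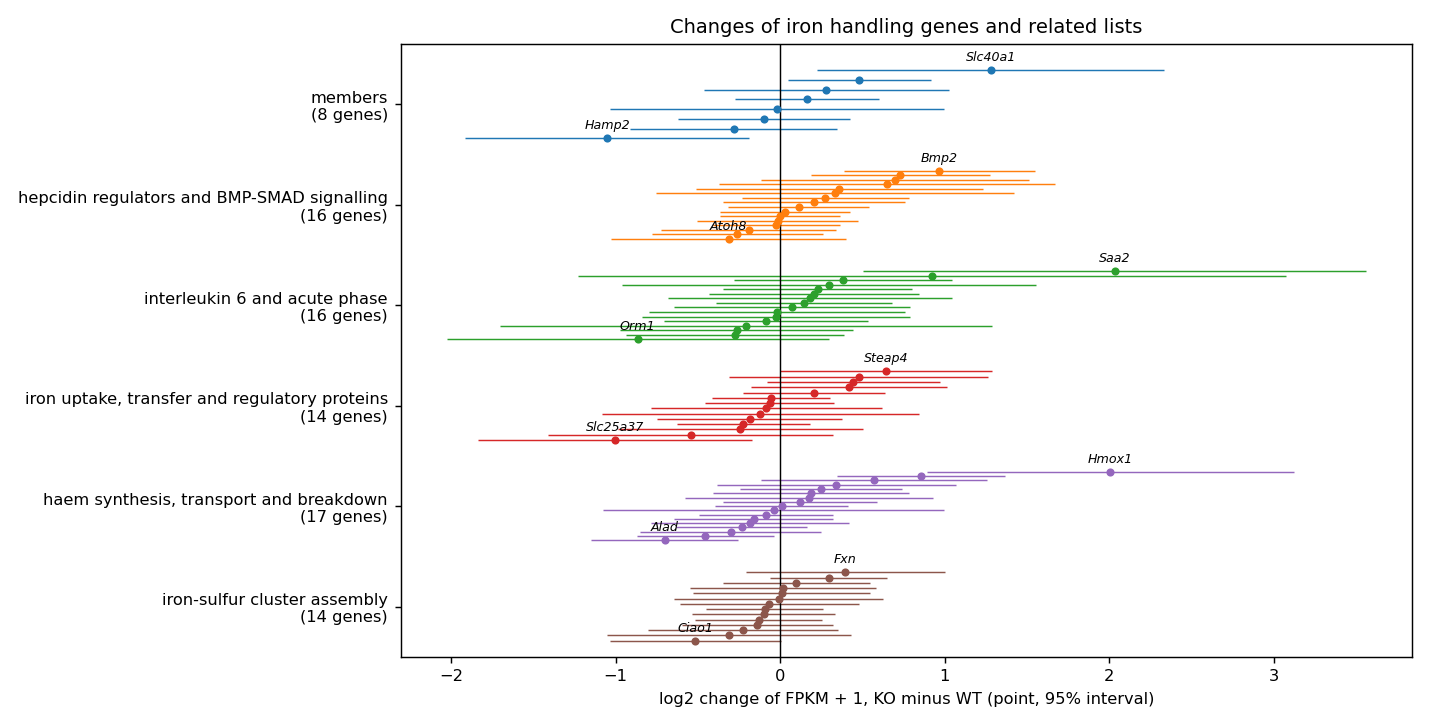
Log2 change of FPKM + 1, KO minus WT, with its 95% interval, for each tested gene of the iron set (without Fth1) and of the 5 related lists, and the highest and lowest gene of each list named. Slc40a1 at 1.28 and Hamp2 at -1.05 are the ends of the iron set, and Saa2 at 2.03 and Hmox1 at 2.01 are the highest points of the plot.

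The genes whose levels were most like Hamp were ranked by Pearson r of log2(FPKM + 1) over the 8 libraries, among 8487 protein-coding genes tested, as a description without a test. The highest r values were those of Atp5e (0.96), Sult2a1 (0.93), Srrm4 (0.93), Cdc42se1 (0.93) and Slx1b (0.93), and the lowest those of Onecut2 (-0.94), Vps13b (-0.92), Gtdc1 (-0.92), Smarcc1 (-0.90) and Reps1 (-0.89). Atp5e, a subunit of ATP synthase, was at 26.9, 47.7, 51.4 and 47.5 FPKM in KO 1 to KO 4 and at 45.5, 42.9, 28.1 and 33.9 FPKM in WT 1 to WT 4. KO 1 and WT 3 were the lowest libraries for Atp5e as for Hamp. The points share library scale and depth, and the genes named were picked as the extremes of the ranking.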

How the data were processed

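The authors deposited 1 table of FPKM values for 35638 genes with Ensembl IDs. The submitters' processing notes name TopHat, edgeR and mm10, without versions or roles. How FPKM was computed, how multiply mapped reads were handled, which annotation was used and whether strand was used is not given in the sources used here. Per the labels' protocols, Trizol and miRNeasy were used for the RNA and Nugen reagents for the libraries. Of the IDs, 35421 (99.4%) matched GENCODE M21 (GRCm38), the source of coordinates. Depth was estimated from 12059 genes with 1 transcript of at least 400 nt, as the depth that put the largest share of low values within 0.1 of a whole read. At that depth the share was 55.6 to 60.4%. Chance gives 20% at a depth fixed in advance, and the chance level for a depth chosen this way was not computed. As many low values were not near a whole read, no reads were rebuilt and no count test was run.

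Values were taken as log2(FPKM + 1) and compared with limma 3.58.1 (R 4.3.3; intensity trend, two-sided, Benjamini-Hochberg, threshold 0.05) over all 11266 genes with a mean of at least 1 FPKM. This scale understates changes of low genes. Single values were compared by exact permutation (scipy 1.17.1). Plots used matplotlib 3.10.9 in Python 3.11.15. The iron genes, lists and markers were chosen with earlier results of these data known. The text names all iron genes, the gene with the smallest p of each other list, and the genes most like Hamp. Others were added after their values were seen, as said for Gm44662, Hfe2 and the genes after it, and some haem genes. So were Gm20425, Ftl2-ps, Gm10116, Gm22133, Txndc5, Steap2, Hscb, Arid1a, Xist and Ddx3y. Alternatives were other pseudocounts, minimums, scalings and variance models, the replicate number as a block, and left-out libraries.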

Additional observations from a re-analysis of the deposited data

Results flagged for a closer look

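In 83 groups of 4 libraries, 7 had 1 library set apart from the others by Dixon's criterion at its 95% level, which chance alone gives in about 1 of 20 groups. Fth1 stood at 368 FPKM in KO 3. Hmox1 stood at 19.8 FPKM in KO 3, the highest of the KO libraries. Id1 stood at 11.5 FPKM in WT 1. Bmp6 came to 438% of Bmp2 in WT 1 and to 8.58% of the summed endothelial markers in the same library, which had the lowest Bmp2 value and the lowest endothelial sum of all. Bmp2 came to 8.92% of the summed endothelial markers in KO 1. Slc40a1 came to 121% of the summed macrophage markers in KO 2, the KO library with the lowest macrophage sum.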

How the results depend on the processing

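None of the iron genes passed the threshold under any of the alternatives run, and the smallest limma adjusted p, leaving Fth1 aside, was 0.101, for Hamp2 without WT 4. Over all genes, 86 passed, against 54 with a pseudocount of 5 FPKM, 27 with a minimum of 5 FPKM and 36 to 134 when single libraries were left out, lowest without KO 3 and highest without KO 2. With the replicate number as a block 24 passed. Deviations of same-numbered libraries correlated at 0.10, -0.07, 0.02 and 0.25, so the numbers were not taken to pair the samples. Hamp2 ranged from -1.40 to -0.78, Slc40a1 from 0.80 to 1.54, Ftl1 from 0.26 to 0.69, Hamp from 0.06 to 0.56 and Hfe from -0.49 to -0.15. Over left-out libraries alone, Tfr2 ranged from -0.19 to 0.0703, highest without WT 4, and Tfrc from -0.32 to 0.26. Over all alternatives the lowest Tfr2 value was -0.21. Tfrc turned to 0.0063 with a pseudocount of 0.1 FPKM, 0.0119 with quantile normalization, 0.16 with array weights and 0.49 without WT 4 and KO 2. Quantile normalization turned Trf to -0.13 and Gm20425 to -0.12, and equal sums turned Tmprss6 to -0.00011. The cause of these turns was not tested. Equal sums moved the median of all genes to -0.12. WT 3 had the lowest sum of FPKM, 455456, against 560525 to 621928 in the other libraries. With equal sums the change of Hamp was 0.17, against 0.28 in the main fit. That of Ftl1 was 0.37, against 0.48, and that of Hamp2 -1.16, against -1.05. With 4 libraries a group, the spread between samples limits what could be detected, and Bmp6 rests on few reads.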
